A study of Mus musculus with 6 samples.

Results

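Collagen chains are encoded by a large gene family, and 39 of the 14484 genes in the deposited count table carry a symbol of that family (Col, a collagen number, the letter a and a chain number). All 39 were kept, and they were placed by known structure in 4 groups: 10 fibrillar chains, 10 chains of the basement membrane and its zone, 5 collagen VI chains and 14 others. Messenger RNA was sequenced from mouse skin, with 3 libraries from animals with wild-type Atr (ATR +/+, called ATR WT). Another 3 came from animals labelled ATR fl/fl, called ATR mD/mD. There the stretch of Atr that codes for the kinase domain is to be deleted, and the data do not show in which cells it was. Both groups also carried Braf CA/+, an activatable allele of the MAPK pathway kinase Braf, and Cre, on a C57BL/6-129J background. The series design calls the samples nevi, benign growths of pigment cells. The labels give no promoter for Cre, no age and no sex, and do not say that each library is a separate animal. The p-values thus cover only the spread among these 6 samples, which may be technical in part. Atr encodes the kinase that responds to stalled DNA replication. Its own level was 17.6, 24.5 and 24.2 CPM (ATR WT) against 20.8, 22.2 and 24.8 CPM (ATR mD/mD), a log2 fold change of 0.03 (SE 0.172), and a total over the gene does not check for a deletion of part of it.

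Collagens are proteins of 3 chains wound into a triple helix and secreted into the extracellular matrix. In skin, collagens I, III and V form the fibrils of the dermis, and collagen IV is the sheet of basement membranes around vessels, nerves, muscle fibres and under the epidermis. Collagens XVII and VII tie basal keratinocytes to the dermis, and collagen VI forms fine beaded filaments between fibrils and basement membranes. Fibroblasts make most of the fibrillar chains, whereas keratinocytes make collagen XVII and much of collagen VII. The skin matrix is rebuilt around the hair follicle during its growth cycle.

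The 6 libraries held 34723600 to 46847751 gene counts. They fell into 3 with a high and 3 with a low level of 30 hair follicle and hair shaft genes, a list that holds no collagen. The list mean was 6.92, 7.21 and 7.15 on the log2 scale of CPM (counts scaled to library size) in ATR WT 2, ATR WT 3 and, among mutants, ATR mD/mD 3, and 1.76, -0.31 and 1.99 in the others (ATR WT 1, then libraries 1 and 2 of ATR mD/mD). They are called hair-high and hair-low libraries below, with values in that order. These sets come from the data and are not study groups, so values by hair level are a description. Y-linked transcripts (4 genes) had means of 4.75, 5.17 and 5.17 log2 CPM in 3 libraries (ATR WT 1 and the ATR mD/mD libraries 2 and 3) and were near absent from the other 3 libraries. Each genotype thus held libraries with and without them, so the libraries of a genotype did not all come from the same animal. All 12 fibroblast markers (summed 2695 to 3187 CPM in ATR WT and 2304 to 3031 in ATR mD/mD), all 8 basal keratinocyte markers (9868 to 14474 and 12844 to 13919.6) and all 10 melanocyte markers (216 to 909 and 156 to 906) were measured, with none at 0. In such bulk samples, fewer cells of a type and less RNA per cell cannot be told apart.

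Promoter sequences are shown for 4 members whose patterns the results below turn on: Col3a1 for the fibrillar chains that were low in 1 library, Col11a1 for the chains that followed hair genes, and Col6a5 and Col28a1 for the largest genotype differences in each direction. Each run is the 250 bases before the RefSeq start on build GRCm38.p6, in gene orientation, and overlaps no annotated exon. Capitals mark a match, on either strand, to the TATA box motif TATAAA, to the box named CCAAT or to the GC box GGGCGG.
Col3a1 (chr1:45311288-45311537, plus strand): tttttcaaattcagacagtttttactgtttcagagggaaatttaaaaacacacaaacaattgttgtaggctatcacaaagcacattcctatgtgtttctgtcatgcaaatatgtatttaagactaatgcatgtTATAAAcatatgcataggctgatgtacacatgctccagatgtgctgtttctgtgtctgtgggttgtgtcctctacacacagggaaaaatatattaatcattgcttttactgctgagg
Col11a1 (chr3:114030290-114030539, plus strand): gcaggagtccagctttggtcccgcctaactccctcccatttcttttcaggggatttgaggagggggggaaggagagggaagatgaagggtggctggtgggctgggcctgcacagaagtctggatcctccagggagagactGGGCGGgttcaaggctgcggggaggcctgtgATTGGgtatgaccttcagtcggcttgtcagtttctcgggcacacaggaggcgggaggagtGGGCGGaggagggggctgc
Col6a5 (chr9:105960644-105960893, minus strand): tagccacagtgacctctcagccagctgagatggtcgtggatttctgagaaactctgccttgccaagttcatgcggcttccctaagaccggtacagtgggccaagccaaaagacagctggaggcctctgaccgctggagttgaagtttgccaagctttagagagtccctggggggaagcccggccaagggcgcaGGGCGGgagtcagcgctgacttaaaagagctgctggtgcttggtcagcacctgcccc
Col28a1 (chr6:8192618-8192867, minus strand): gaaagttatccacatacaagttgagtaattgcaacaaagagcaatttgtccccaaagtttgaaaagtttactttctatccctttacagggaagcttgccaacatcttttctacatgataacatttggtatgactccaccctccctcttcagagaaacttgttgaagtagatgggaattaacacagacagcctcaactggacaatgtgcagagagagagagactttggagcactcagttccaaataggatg
The Col3a1 window held TATAAA and no GGGCGG, and its G+C content was 35.2%. Col11a1 held GGGCGG at 2 places and CCAAT in reverse, with a G+C content of 62.4%. Col6a5 held GGGCGG at 1 place, and Col28a1 held no match. The RefSeq table had 33 promoters for 31 of the 39 members. GGGCGG, the GC box, was in 20 of these 33 (60.6%) and in 32.7% of all 32851 promoters of the table. TATAAA was in 5 of 33 (15.2%, against 12.4% of all), CCAAT in 10 of 33 (30.3%, against 33.8%), and TGANTCA, the AP-1 motif, in 1 of 33 (3.03%, against 6.75%), that of Col6a1. A match is a description of the letters and not a binding site.

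By level per length, the order of the chains was steep. Per kilobase of annotated exon, mean CPM was 478 for Col1a1, 442 for Col3a1 and 347 for Col1a2, the chains of collagens I and III. The next was Col17a1, the hemidesmosome collagen of basal keratinocytes, at 142. Then came Col6a1 at 73.9, Col4a1 at 51.3, Col16a1 at 38.3, Col6a2 at 36.0 and Col4a2 at 35.9 CPM per kilobase. At the low end, Col4a3, Col26a1 and Col22a1 were at 0.133, 0.132 and 0.132. All 39 chains together took 1.59% to 1.78% of gene counts in 5 libraries and 0.830% in ATR mD/mD 1. The 10 fibrillar chains accounted for that gap: they took 1.18% to 1.47% in 5 libraries and 0.521% in ATR mD/mD 1. The basement membrane group lay between 0.167% (ATR WT 1) and 0.228% (ATR WT 3), and in that group ATR mD/mD 1 was inside the range of the others.

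**Figure D1:**
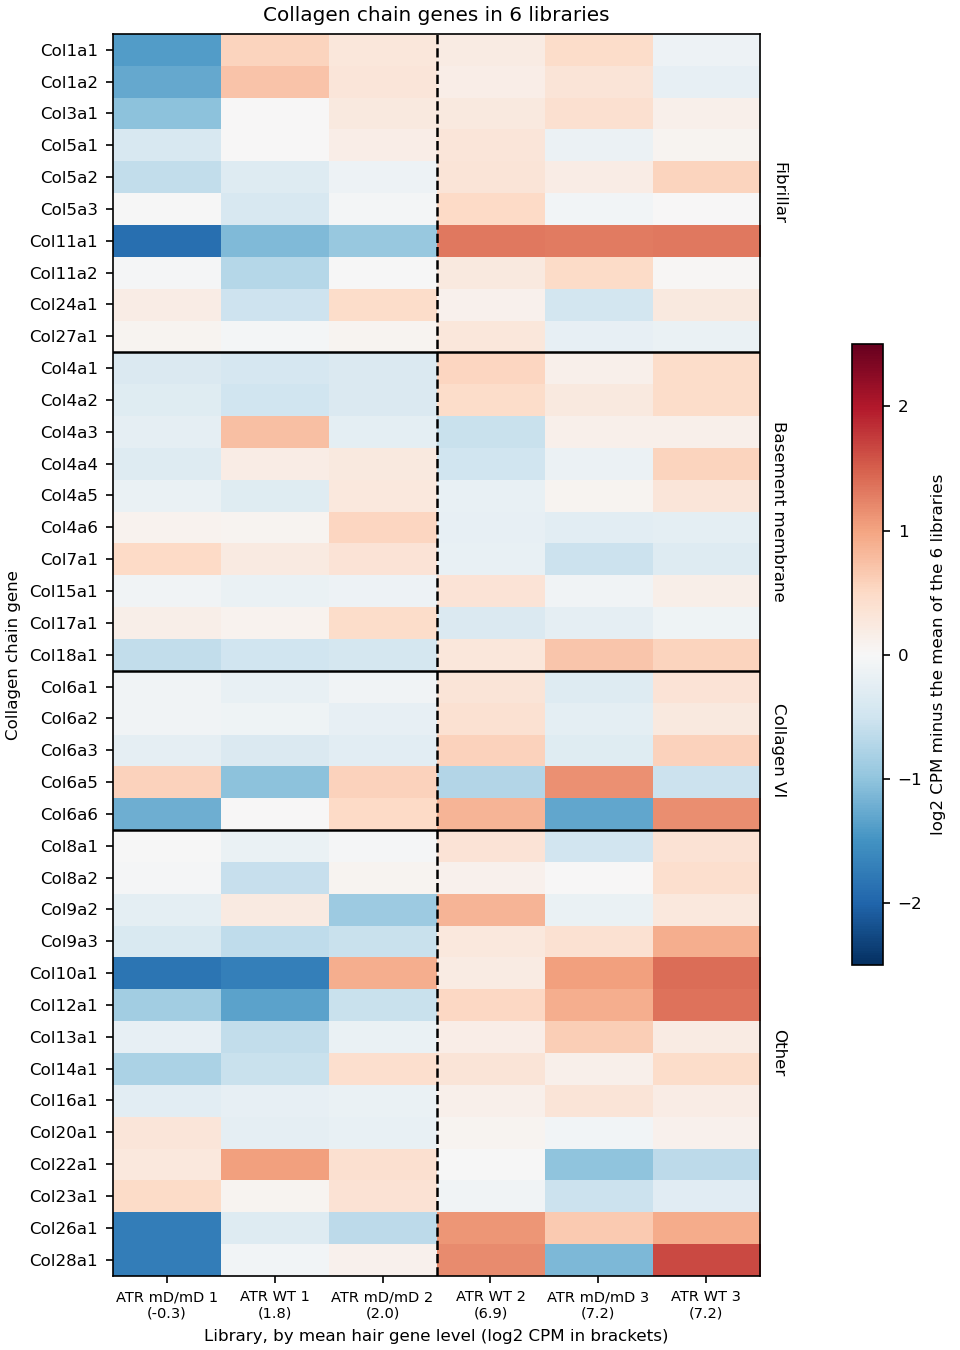
Heat map of the 39 collagen chain genes (rows, by group) in the 6 libraries (columns, from the lowest to the highest mean hair gene level, in brackets), colour giving log2 CPM minus the gene's mean over the libraries. The dashed line parts the 3 libraries with low hair genes from the 3 with high hair genes, and Col11a1 is 2.63 log2 units higher on the right.

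No collagen chain gene differed between the genotypes at an adjusted p under 0.05 in edgeR's quasi-likelihood test (0 of 39, against 0.0483% of all genes). limma-voom also called 0, with 4 members at an unadjusted p under 0.05 (against 1.78% of all genes). DESeq2 called 1 (5 at an unadjusted p under 0.05, against 2.08% of all genes), Col6a5, where it called 0.27% of all genes, and edgeR's exact test with its default dispersions called the same gene, where it called 0.173%. At an unadjusted p under 0.05, the quasi-likelihood test gave 3 members, Col6a5, Col28a1 and Col9a2, or 7.69% of members against 1.66% of all genes. The genotypes did not overlap in 2 members, Col6a5 (higher in ATR mD/mD) and Col9a2 (lower), or 5.13% against 4.84% of all genes, a share near the background. The log2 fold change of ATR mD/mD against ATR WT was below 0 in 28 of 39 chains (71.8%, against 48.0% of all genes), with a median of -0.23 (0.01 over all genes). With hair level in the model it was below 0 in 23 of 39 (59.0%, against 48.2%) with a median of -0.05, and 1 member had an unadjusted p under 0.05 (against 4.69%). Without ATR mD/mD 1 it was also below 0 in 23 (59.0%, against 47.7%) with a median of -0.12, and 1 member had an unadjusted p under 0.05 (against 1.37%).

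**Figure D2:**
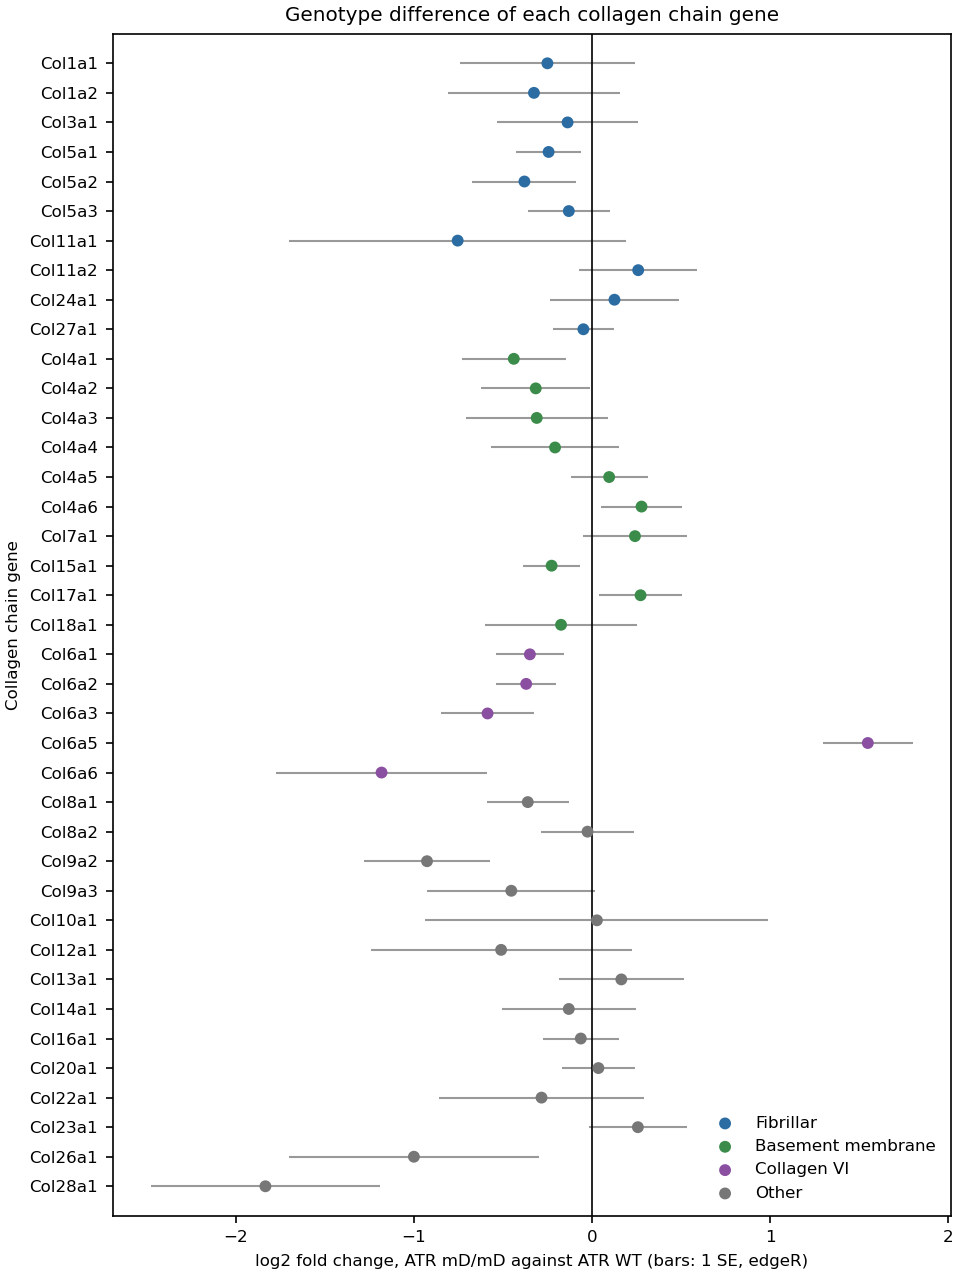
log2 fold change of ATR mD/mD against ATR WT (points) with 1 standard error on each side (bars, edgeR) for the 39 collagen chain genes, coloured by group. Col6a5 stands at 1.55 and Col28a1 at -1.83, with Col6a6 at -1.18 on the left.

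The chains of collagens I and III, the main fibrils of the dermis, were set apart by 1 library. Col1a1 was at 4259, 3313 and 2657 CPM (ATR WT) against 1092, 3524 and 3979 CPM (ATR mD/mD). ATR mD/mD 1 was lowest by far, at 41.1% of the next lowest library, and the other 5 libraries overlapped between the genotypes. The log2 fold change of Col1a1 was -0.25 (SE 0.493, adjusted p = 0.9999, edgeR), and it turned to 0.14 without ATR mD/mD 1. Col1a2, the partner chain of Col1a1 in collagen I, was at 6486, 4436 and 3453 CPM (ATR WT) against 1626, 4901 and 4937 CPM (ATR mD/mD), a log2 fold change of -0.33 (SE 0.484) that was 0.04 without ATR mD/mD 1. Col3a1, which forms the homotrimer collagen III, was at 4179, 4922 and 4543 CPM (ATR WT) against 2031, 4895 and 5478 CPM (ATR mD/mD). Its log2 fold change was -0.14 (SE 0.395), or 0.19 without ATR mD/mD 1. ATR mD/mD 1 was thus the lowest library for all 3 of these chains, and ATR mD/mD 3 was above at least 2 of the 3 ATR WT libraries in each.

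Within a library, the chains of collagen I kept close proportions. Per kilobase, Col1a1 stood to Col1a2 at 1.24, 1.41 and 1.46 (ATR WT) against 1.27, 1.36 and 1.53 (ATR mD/mD), a span of 1.23-fold over the 6 libraries, whereas the Col1a1 level itself spanned 3.90-fold. Col3a1 stood to Col1a1 at 0.656 in ATR WT 1 and at 1.24 in ATR mD/mD 1, with 0.920 to 1.14 in the other 4. Some genes that bind or process collagen were lowest in ATR mD/mD 1, and others were not. The fibril-bound Dcn and Lum were at 1433 and 335 CPM in ATR mD/mD 3 against 1815 and 430 in ATR mD/mD 1. These, Sparc and Adamts2 were chosen after their values were seen. Serpinh1, the chaperone Hsp47 that binds procollagen, was at 204 CPM there and at 252 to 414 in the others. Sparc, a collagen-binding matrix protein, was at 1053 CPM there and at 1873 to 3368 in the others, and the procollagen N-proteinase gene Adamts2 was at 82.3 against 154 to 211. The summed fibroblast markers were not low in that library (3031 CPM, within the range of the others), and the summed adipocyte markers (10 of 10 measured) were highest there, at 4543 CPM against 2572 to 3609. Col1a1 and Col1a2 were also higher in each of the 3 libraries with Y-linked transcripts than in each of the other 3. Such a split was seen in 7 of 39 members in either direction (17.9%, against 6.92% of all genes). With the Y-linked level as a covariate, the log2 fold changes of Col1a1 and Col1a2 were -0.86 (unadjusted p = 0.0816) and -0.88 (unadjusted p = 0.0491, edgeR, adjusted p = 1.0). The part of fat, Y-linked transcripts and hair level in the collagen I values was not tested.

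**Figure D3:**
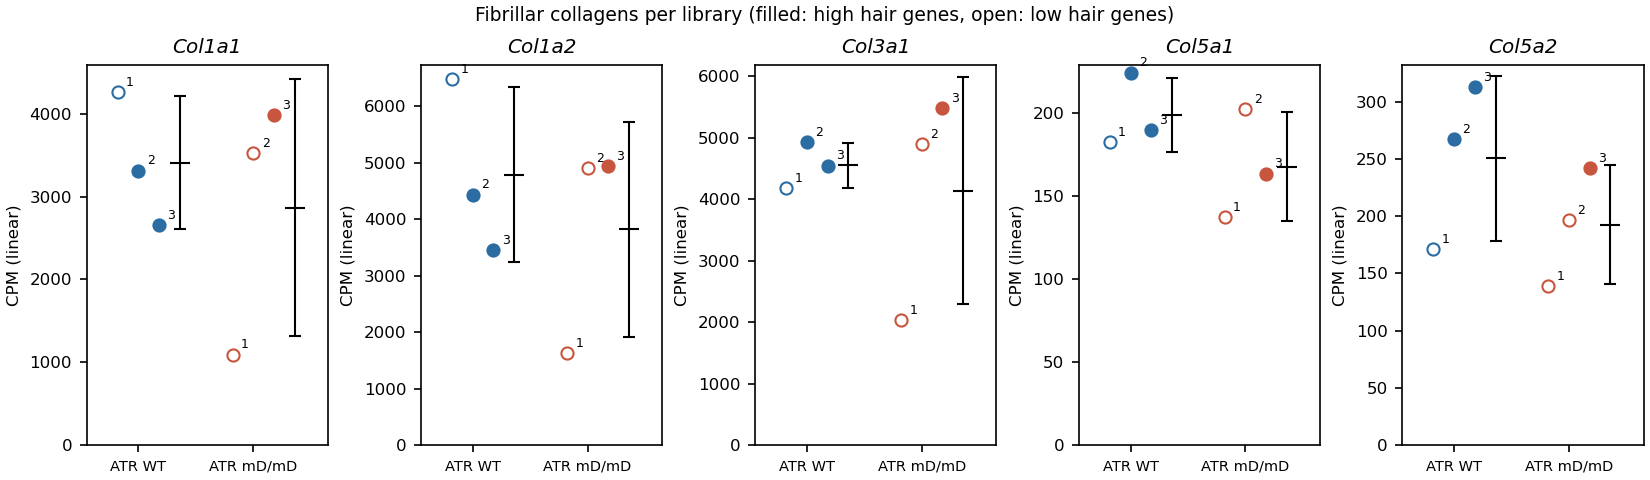
CPM (linear axes from 0) of 5 fibrillar collagen genes in each library, numbered by replicate, with the mean and SD of 3 libraries as a bar at the right of each group. Filled points are libraries with high hair genes. ATR mD/mD 1 is the lowest point for Col1a1 (1092 CPM), Col1a2 and Col3a1.

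That library was the lowest of the 6 in 12 of 39 members (30.8%, against 12.0% of all genes), and 6 of these 12 were fibrillar. ATR WT 1 was the lowest in 14 of 39 members (35.9%, against 22.4% of all genes), and 3 of these 14 were fibrillar. The chains of collagen V spanned less. Col5a1, a chain of collagen V that starts collagen I fibrils, was at 182, 225 and 189.9 CPM (ATR WT) against 138, 203 and 164 CPM (ATR mD/mD) (log2 fold change -0.24, SE 0.184). Col5a2, its partner chain, was at 171, 268 and 313 CPM against 139, 197 and 242 (-0.38, SE 0.292). Col5a2 was higher in every library with high hair genes than in every one with low hair genes, and Col5a1 was not split in this way. Col11a1, the related chain of collagen XI, was at 20.8, 20.7 and 20.4 CPM in the hair-high libraries. In the hair-low libraries it was at 3.81, 2.20 and 4.27 CPM, so the level followed hair genes in both genotypes, with a difference of 2.63 log2 units. Its genotype log2 fold change of -0.75 (SE 0.945) was 0.0032 with the hair level as covariate. Col11a2 was at 1.90 to 4.41 CPM (0.26, SE 0.330) and the fibrillar chain Col24a1 at 1.13 to 2.26 CPM (0.13, SE 0.361). Col5a3 and Col27a1 had log2 fold changes of -0.13 and -0.05. Over the 10 fibrillar chains the median was -0.19, or -0.02 without ATR mD/mD 1.

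Libraries with high and low hair genes were then set side by side. In 12 of 39 members every library with high hair genes was above every library with low hair genes (30.8%, against 19.6% of all genes), and in 5 the order was the other way (12.8%, against 17.1%). With both directions together the count was 17 of 39 (43.6%, against 36.7% of all genes), so a split by hair level was common throughout the table. By group, it was seen in 3 of 10 fibrillar, 7 of 10 basement membrane, 0 of 5 collagen VI and 7 of 14 other chains.

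Within the basement membrane group, the direction differed by chain. Col4a1 and Col4a2, which assemble as the common collagen IV of vessels and other basement membranes, lie head to head on chromosome 8 (11198423 to 11312826, minus strand, and 11312805 to 11449287, plus strand, mm10) with starts that overlap by 22 bases. Col4a1 was at 536, 509 and 401 CPM in the hair-high libraries, and at 277, 288 and 286 CPM in the hair-low libraries. Col4a2 was at 314, 315 and 271 CPM and at 163, 185 and 179 CPM in the same order of libraries. Both were thus higher wherever hair genes were high. Among the libraries with low hair genes they differed little between genotypes (0.05 and 0.16 log2 units). Among those with high hair genes, ATR mD/mD 3 was lower than ATR WT 2 and 3 (-0.38 and -0.21 log2 units). By genotype, Col4a1 had a log2 fold change of -0.44 (SE 0.291) and Col4a2 one of -0.32 (SE 0.305). With the hair covariate these were -0.15 and -0.0031. The per-kilobase ratio of Col4a1 to Col4a2 stayed between 1.31 and 1.51 over the 6 libraries. It was lower in each ATR mD/mD library (1.31 to 1.41) than in each ATR WT library (1.43 to 1.51), by a narrow gap. The ratios of Col1a1 to Col1a2 and of Col6a1 to Col6a2 overlapped between genotypes. No share over other gene pairs was computed, so the gap is only a description. Endothelial markers (10 of 10 measured) were not higher in the same libraries: their summed level was 375 to 414 CPM with high and 477 to 545 with low hair genes.

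Col18a1, the precursor of endostatin in vessel and epithelial basement membranes, followed hair genes most in this group. It was at 198, 241 and 265 CPM in the hair-high libraries and at 116, 107 and 119.8 CPM in the hair-low libraries, a difference of 1.03 log2 units. Col15a1, a related chain, differed by 0.27 in the same direction, with groups of libraries that did not overlap. The chains that anchor keratinocytes were lower where hair genes were high. Col17a1 was at 888, 929 and 1150.2 CPM in the hair-low libraries and at 649, 784 and 722 CPM in the hair-high ones. Col7a1, the anchoring fibril chain, was at 183, 221 and 198 CPM and at 138, 126 and 109 CPM in the same order, a hair-level difference of -0.69 log2 units against -0.46 for Col17a1. The summed basal keratinocyte markers ranged from 12844 to 14474 CPM with low and from 9868 to 12859.8 CPM with high hair genes, so they moved the same way with overlap, and their part was not tested. Genotype log2 fold changes were 0.27 (SE 0.234) for Col17a1 and 0.24 (SE 0.293) for Col7a1, and 0.12 and -0.09 with the hair covariate.

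**Figure D4:**
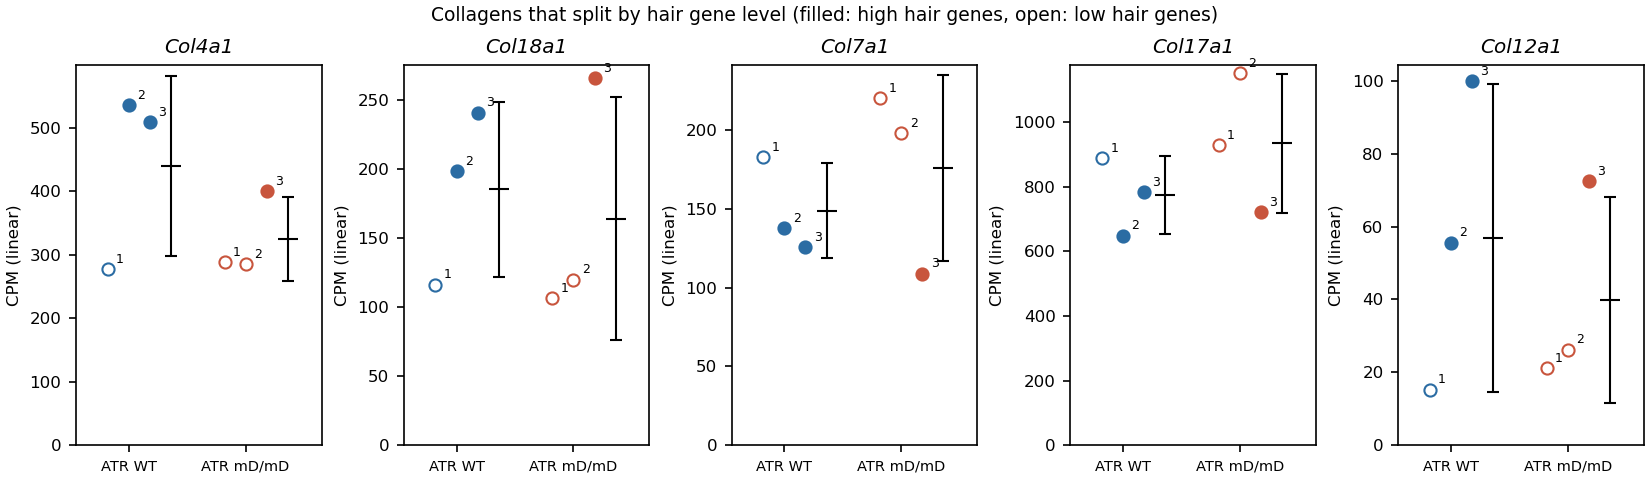
CPM (linear axes from 0) of 5 collagen genes in each library, numbered by replicate, with the mean and SD of 3 libraries per genotype as a bar. Filled points (high hair genes) lie above open points for Col4a1, Col18a1 and Col12a1 and below them for Col7a1 and Col17a1.

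The other collagen IV chains did not share one pattern. Col4a5 and Col4a6, neighbours on the X chromosome with 1.31 kb between them, parted: Col4a6 was at 23.4, 23.6 and 32.2 CPM with low and at 19.3, 18.6 and 18.5 CPM with high hair genes, whereas Col4a5 lay between 13.5 and 20.6 CPM with overlap. Col4a6 had the largest positive genotype log2 fold change of the group, 0.28 (SE 0.227). Col4a3 and Col4a4, chains known from kidney, were low, at 0.851 to 2.18 and 1.29 to 2.74 CPM, with genotype log2 fold changes of -0.31 (SE 0.398) and -0.21 (SE 0.358). Over the 10 chains the genotype median was -0.19, and 6 of them were below 0.

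Within collagen VI, Col6a5 was higher and the other 4 chains were lower on average in ATR mD/mD. Col6a1, Col6a2 and Col6a3 are the chains of the common collagen VI filament, and Col6a5 and Col6a6 are long chains that can take the place of the third. Col6a5 was at 3.45, 4.21 and 4.87 CPM (125, 183 and 238 counts) for ATR WT, against 10.5, 10.5 and 15.6 CPM (368, 415 and 545 counts) for ATR mD/mD. Every ATR mD/mD library was above every ATR WT library. The means were 4.18 ± 0.713 and 12.2 ± 2.93 CPM (SD, n = 3), 2.92-fold higher in ATR mD/mD, or 1.55 on the log2 scale (SE 0.252, adjusted p = 0.496, unadjusted p = 0.000617, edgeR quasi-likelihood). The adjusted p was 1.89e-05 with DESeq2, 0.00632 with edgeR's exact test on its default dispersions, 0.196 with that test on tagwise dispersions, 0.494 with limma-voom and 0.0591 with the hair level as covariate (edgeR). The Y-linked level as covariate gave a log2 fold change of 1.56 (unadjusted p = 0.00292, edgeR), with an adjusted p not under 0.05. The authors' deposited table gives Col6a5 an adjusted p of 0.192. The difference was of like size at both hair levels: 1.77 log2 units for ATR mD/mD 3 against ATR WT 2 and 3, and 1.60 for ATR mD/mD 1 and 2 against ATR WT 1. Left-out libraries moved the log2 fold change between 1.33 and 1.66, and the adjusted p then lay between 0.513 and 1.0 (edgeR).

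Col6a6 lies 27.9 kb from Col6a5 on chromosome 9 (105687809 to 105828160 and 105856078 to 105960643, both on the minus strand, mm10) and its mean differed in the other direction. It was at 3.50, 6.35 and 7.84 CPM (ATR WT) against 1.46, 4.95 and 1.37 CPM (ATR mD/mD), or -1.18 as log2 fold change (SE 0.592, unadjusted p = 0.0890, adjusted p = 0.9999, edgeR). DESeq2 gave Col6a6 an unadjusted p of 0.0480, with an adjusted p not under 0.05. ATR mD/mD 2 lay above ATR WT 1, so the genotypes overlapped. Per kilobase, Col6a5 stood to Col6a6 at 0.958, 0.646 and 0.605 (ATR WT) against 7.03, 2.07 and 11.1 (ATR mD/mD). All 3 ATR mD/mD ratios were above all 3 ATR WT ratios. Col6a5 alone already parted the genotypes, and Col6a6 was named for its negative fold change, so the ratio is not separate support. Both genes lie on the same chromosome as Atr, 9.90 Mb (Col6a5) and 9.74 Mb (Col6a6) from it. The other members on chromosome 9 are Col7a1 (13.0 Mb from Atr), Col12a1 (16.1 Mb) and Col5a3 (75.0 Mb), with log2 fold changes of 0.24, -0.51 and -0.13 (SE 0.293, 0.733 and 0.230).

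The 3 common collagen VI chains were lower on average in ATR mD/mD, with overlap. Col6a3 was at 172, 329.8 and 330.2 CPM (ATR WT) against 189, 186 and 180.2 CPM (ATR mD/mD). ATR WT 1 lay below all ATR mD/mD libraries, and the other 2 ATR WT libraries, which had high hair genes, lay well above. The log2 fold change was -0.59 (SE 0.262, unadjusted p = 0.0628, edgeR). It was -0.87 log2 units among libraries with high hair genes and 0.12 among those with low hair genes, a difference between hair levels that was not tested. Col6a1 was at 282, 399.6 and 406 CPM against 299, 301 and 254, and Col6a2 at 275, 386 and 351 CPM against 279, 255 and 249.6, with log2 fold changes of -0.35 (SE 0.190) and -0.37 (SE 0.169). Their pattern was that of Col6a3, since ATR WT 1 sat with the ATR mD/mD libraries. Col6a2 and Col6a3 were also lower in every library with Y-linked transcripts than in every other library. With the Y-linked level as a covariate the log2 fold change of Col6a3 was -0.35. DESeq2 gave an unadjusted p of 0.0339 for Col6a3, 0.0384 for Col6a2 and 0.0850 for Col6a1, none with an adjusted p under 0.05. For Col6a2 and Col6a1 the unadjusted p by edgeR's quasi-likelihood test was 0.0677 and 0.111. The ratio of Col6a1 to Col6a2 per kilobase stayed between 1.93 and 2.24.

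**Figure D5:**
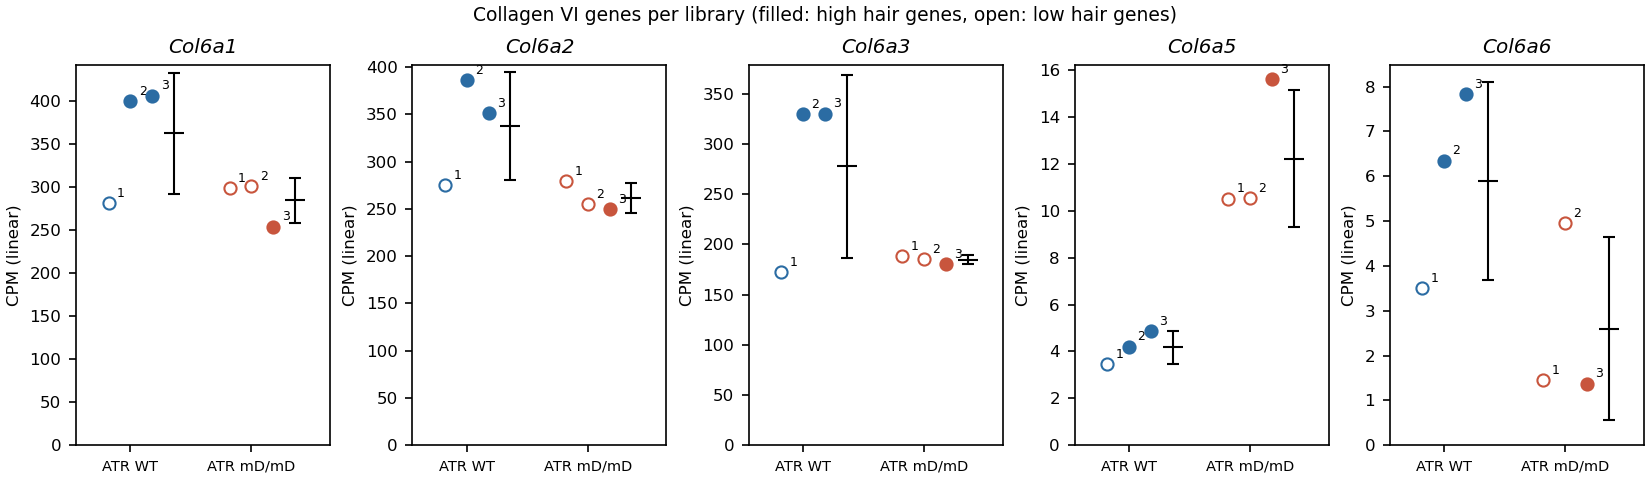
CPM (linear axes from 0) of the 5 collagen VI genes in each library, numbered by replicate, with the mean and SD of 3 libraries as a bar at the right of each group. The genotypes part for Col6a5 (3.45 to 4.87 against 10.5 to 15.6 CPM) and overlap for the other 4.

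Among the other chains, 2 had an unadjusted p under 0.05, both at low counts. Col28a1, a chain with von Willebrand A domains known from peripheral nerve, had 56, 163 and 253 counts (1.54, 3.75 and 5.18 CPM) for ATR WT against 16, 69 and 25 counts (0.458, 1.75 and 0.716 CPM) for ATR mD/mD. ATR mD/mD 2 was above ATR WT 1. The log2 fold change was -1.83 (SE 0.643, unadjusted p = 0.0265, adjusted p = 0.9999, edgeR), and -1.37 (unadjusted p = 0.0947) with the hair covariate. Schwann cell markers (10 of 10 measured) had log2 fold changes below 0 in all 10, with summed levels of 658 to 906 CPM in ATR WT and 528 to 834 in ATR mD/mD, and their part was not tested. Col9a2, a chain of the cartilage collagen IX that coats fibrils, had 47, 88 and 65 counts (ATR WT) against 32, 22 and 34 (ATR mD/mD). Its CPM was 1.30, 2.02 and 1.33 against 0.915, 0.559 and 0.973, with no overlap (log2 fold change -0.93, SE 0.352, unadjusted p = 0.0359, adjusted p = 0.9999, edgeR). Its partner chain Col9a3 overlapped, at 1.49, 2.83 and 4.44 CPM against 1.77, 1.57 and 3.06, and was higher wherever hair genes were high.

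Col12a1, which sits on the surface of collagen I fibrils, showed the widest hair-level difference of this group, 1.85 log2 units. It was at 55.6, 99.9 and 72.4 CPM in the hair-high libraries and at 15.2, 21.2 and 26.2 CPM in the hair-low libraries. The low-count Col26a1 came next, at 1.40 to 1.93 against 0.229 to 0.689 CPM, a difference of 1.80. The genotype log2 fold change of Col12a1, -0.51 (SE 0.733), became 0.35 with the hair covariate. Col14a1, another fibril-surface chain, followed neither split, with 49.1, 90.7 and 98.9 CPM (ATR WT) against 41.9, 96.7 and 79.3 CPM (ATR mD/mD) (-0.13, SE 0.376). Col16a1, the most abundant of this group per length, was at 281, 291 and 321 CPM with high and at 221, 212 and 226 CPM with low hair genes, and its genotype log2 fold change was -0.06 (SE 0.212).

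A few chains were lower where hair genes were high. Col23a1, a transmembrane collagen found in epidermis, was at 39.5, 52.0 and 48.1 CPM in the hair-low libraries and at 35.3, 30.7 and 25.9 CPM in the other 3. Its genotype log2 fold change was 0.26 (SE 0.273), or -0.05 with the hair covariate. Col22a1, a chain of muscle-tendon junctions, was at 2.26, 1.32 and 1.45 CPM with low and at 1.08, 0.675 and 0.515 CPM with high hair genes. Skeletal muscle markers (12 of 12 measured) moved with it, and all 12 were lower at high hair genes with no overlap (against 17.1% of all genes). Their summed levels were 25051 to 39100.3 CPM with low and 8615 to 14641 with high hair genes, and their part was not tested. The genotype log2 fold change of Col22a1 was -0.28 (SE 0.578). Col10a1, known from growth plate cartilage, ranged from 0.200 to 2.27 CPM with overlap. Col8a1, Col8a2, Col13a1 and Col20a1 had genotype log2 fold changes of -0.36, -0.03, 0.16 and 0.04, none with an unadjusted p under 0.05.

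Genes that fold, trim and bind collagen gave no call either. In edgeR's quasi-likelihood test, 0 of 18 folding and hydroxylation genes, 0 of 12 processing and cross-linking genes, 0 of 16 fibril-bound proteins, 0 of 16 laminin and related genes, 0 of 15 elastic fibre genes, 0 of 12 collagen receptors and 0 of 15 TGF-beta genes were called in either direction. Unadjusted p under 0.05 was reached by 1 folding gene, 1 fibril-bound protein and 1 elastic fibre gene, all lower in ATR mD/mD, and by none of the other 4 lists (1.66% of all genes reached it). Serpinh1 was at 372, 414 and 354 CPM (ATR WT) against 204, 252 and 286 CPM (ATR mD/mD), with no overlap (log2 fold change -0.62, SE 0.172, unadjusted p = 0.00962, adjusted p = 0.9999, edgeR). Kera, the proteoglycan keratocan, was at 3.42 ± 0.506 and 1.95 ± 0.140 CPM (SD, n = 3; -0.81, SE 0.238), and Mfap2, a microfibril protein, at 65.6 ± 10.4 and 47.4 ± 8.73 CPM (-0.47, SE 0.189). The list medians were -0.11 for folding, -0.16 for processing, -0.08 for fibril-bound proteins, 0.03 for laminins, -0.23 for elastic fibres, -0.15 for receptors and -0.12 for TGF-beta genes. Of the 15 elastic fibre genes all 15 were below 0, and of the 18 folding genes 16 were, against 48.0% of all genes. Below 0 were also 11 of 12 receptors, 10 of 12 processing, 12 of 15 TGF-beta, 10 of 16 fibril-bound and 7 of 16 laminin genes. In the elastic fibre list and in the folding list, 12 genes each were higher on average in the hair-high libraries (7697 of 14484 over all genes). Of these libraries, 2 of 3 are ATR WT. Higher there with no overlap were 5 elastic fibre and 3 folding genes (against 19.6% of all genes). Lower there with no overlap were 0 elastic fibre and 2 folding genes (against 17.1%). The part of hair level was not tested. Members with the smallest p of the remaining lists were Loxl4 (-0.50, SE 0.263), Lamb3 (0.24, SE 0.205), Cspg4 (-0.42, SE 0.215) and Tgfb2 (-0.29, SE 0.231).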

How the data were processed

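RNA from skin was sequenced in 6 libraries, 3 per genotype. Libraries were poly(A)-selected with a kit without strand marking, per the labels' protocols. The submitters' processing notes name FastQC, TopHat2 2.0.12, edgeR and build mm10; no read counter, annotation or low-count filter is named there or in the labels. The authors deposited whole-number read counts per gene, without normalization, with 1 column per library, per the file headers. The deposited table also holds the authors' log2 fold change and average log2 CPM, and a p-value and adjusted p-value per gene, per the file headers. An exact test with tagwise dispersions on all 14486 listed rows matched the deposited p-values within 1% in 100% of rows, so the deposited calls are not separate support.

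The 2 rows that name no gene (4.93% to 5.73% of counts) entered neither library sizes nor tests. The lowest total of a gene was 171 counts, and filterByExpr kept all 14484 genes, so rarer collagen genes were not analysed here. Counts were scaled by TMM (factors 0.923 to 1.04) and tested with edgeR 4.0.16 (quasi-likelihood, R 4.3.3, no covariate), with Benjamini-Hochberg adjustment over all genes. SE was derived from the fold change and the F statistic (log2 fold change over the root of F, unsigned). Log2 CPM used a prior count of 2, and hair-level sets were parted at a list mean of 5 log2 CPM. Lengths and positions come from merged exons of GENCODE M21 on the same build, which matched all 39 members. Exons of 12 members overlap another gene, by up to 563 bases, and such reads cannot be told apart. No pair of libraries within a group was a repeat deposit (chi-square per degree of freedom at least 55.4). Fits were tested on simulated data.

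The members and gene lists were chosen with earlier results of these data known. Genes described with every library were 5 set markers, and in each group the 2 highest by mean CPM and the extremes by genotype and by hair level, with every member at an unadjusted p under 0.05 or without genotype overlap. Of each related list the gene with the smallest p was taken. Other members with values, Sparc, Adamts2, Dcn and Lum were chosen after their values were seen. Alternatives were DESeq2 size factors (RLE), filters, DESeq2 1.42.0, limma-voom (limma 3.58.1), a replicate block, hair and Y-linked covariates, each library left out and, chosen after seeing the data, edgeR's exact test with default or tagwise dispersions.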

Additional observations from a re-analysis of the deposited data

How the results depend on the processing

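The count of chains past an adjusted p under 0.05 was 0, and 1 (Col6a5) with DESeq2 or with edgeR's exact test on default dispersions. The count at an unadjusted p under 0.05 was 3, and 5 with DESeq2, 1 with the hair covariate and 1 to 9 with 1 library left out (9 when ATR WT 1 was dropped, 6 when ATR mD/mD 3 was, and 1 when ATR mD/mD 1 or either of ATR WT 2 and 3 was dropped). The count of chains below 0 ran from 22 (without ATR WT 3) to 31 (without ATR WT 1), around 28. With 1 library left out, the basement membrane median log2 fold change ran from -0.20 to 0.051 (positive without ATR WT 3). The median hair-level difference ran from 0.064 (without ATR mD/mD 1) to 0.49 in fibrillar chains, against 0.33, and from -0.14 (without ATR WT 3) to 0.17 in basement membrane chains, against 0.04. The cause was not tested.

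With the hair covariate the sign turned for 9 of the 39 chains: Col8a2 (0.17), Col11a1 (0.0032), Col12a1 (0.35), Col14a1 (0.21), Col16a1 (0.11), Col18a1 (0.19), Col3a1 (0.031), Col7a1 (-0.090) and Col23a1 (-0.048). Each library was left out in turn for the whole table, and the fold changes of the 23 chains of the naming rule were followed. Among these the sign turned for Col1a1 (-0.56 to 0.14), Col1a2 (-0.55 to 0.038), Col3a1 (-0.39 to 0.19), Col12a1 (-1.26 to 0.17), Col14a1 (-0.39 to 0.15), Col16a1 (-0.27 to 0.053), Col18a1 (-0.71 to 0.062), Col22a1 (-0.62 to 0.33) and Col24a1 (-0.094 to 0.35). Of the remaining chains, followed only in the fit without ATR mD/mD 1, Col20a1 turned to -0.12. RLE scaling turned no sign among the 23 chains and moved no call. The filters, filterByExpr and at least 1 CPM in 3 libraries, kept all 14484 genes, so they tested nothing. Whether replicate numbers pair the samples is not known. Deviations of same-numbered libraries from their group means correlated at 0.633, -0.509 and 0.573. Libraries of like hair level also correlated, such as ATR WT 2 with ATR mD/mD 3 at 0.701, so the check cannot decide. The replicate block left 0 chains past the threshold (4 at an unadjusted p under 0.05, and 27 below 0), and Col6a5 had an adjusted p of 0.575 in it. Low chains rest on few reads: Col26a1 had 8 to 84 and Col9a2 22 to 88 counts per library, which limits what could be detected.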
